A study of Homo sapiens with 117 samples.

Results

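The locus described here is the stretch of chromosome 4 (GRCh38) that holds FIP1L1, CHIC2, GSX2, PDGFRA and KIT, together with the CTCF peaks that lie between and within these 5 genes. Its members are all CTCF peaks whose summit, the position of highest coverage in a peak, falls in chr4:53300000-54800000. The region was chosen for its genes and not for any value of these lists. Over 24 peak lists, 4718 of 6613486 summits lay in it, from 45 to 351 per list. When summits within 100 bp of each other were joined into sites, the region held 2878 of 3095213 sites. Of these, 1988 (69.08%) were seen in 1 list only, 875 in 2 to 17 lists, and 15 in at least 18 lists. The last are called recurrent here.

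The lists come from CTCF ChIP-seq, which maps DNA bound by CTCF, in DIvA cells, an osteosarcoma line in which 4-hydroxytamoxifen (4-OHT) switches on the restriction enzyme AsiSI, which then cuts the genome at its recognition sites. DIvA cells carried IDH1 WT or IDH1 R132H, the mutant enzyme that makes D-2-hydroxyglutarate, an inhibitor of the TET enzymes that oxidise methylated cytosine. R132H cells also carried either the catalytic domain of TET1 (TET1 CD) or its catalytically dead form (TET1 dCD). Each of these 4 kinds of cell was left untreated (-DSB) or given 300 nM 4-OHT for 4 h to induce double-strand breaks (+DSB), and all groups share the AsiSI line. WT -DSB had 3 lists, WT +DSB, R132H -DSB and R132H +DSB had 4 each, TET1 CD had 2 in each treatment, and TET1 dCD had 3 without and 2 with 4-OHT. Lists of 1 condition whose reads agreed within sampling noise were averaged and counted as 1 sample, which left 15 samples, with 1 sample only in each TET1 CD condition. Nothing in the labels says that these came from separate cultures, so p-values measure only the spread between the samples, which may be technical.

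PDGFRA encodes platelet-derived growth factor receptor alpha, and KIT the receptor of stem cell factor. Both are receptor tyrosine kinases. FIP1L1 encodes a factor of mRNA 3′ end processing, CHIC2 a small membrane-associated protein, and GSX2 a homeobox transcription factor of the developing forebrain. A deletion that removes CHIC2 and joins FIP1L1 to PDGFRA makes the fusion kinase of some eosinophilic leukaemias. CTCF is a zinc-finger protein that halts loop extrusion by cohesin, and pairs of bound sites can form the borders of insulated neighbourhoods that keep enhancers from genes beyond them. Methylation of CpG within some CTCF motifs hinders binding, and loss of CTCF at a border between FIP1L1 and PDGFRA is known from IDH-mutant glioma. Cytosine methylation, expression and chromatin contacts were not analysed here.

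The labels of 9 lists stand against the run names written inside the lists. The lists labelled WT -DSB carry run names of R132H -DSB, the 4 lists labelled R132H -DSB carry run names of WT -DSB, and in TET1 dCD -DSB the first and second lists are named inside as TET1 CD +DSB. Groups follow the labels throughout, and the condition results are given once more with the groups that the run names would make. Every comparison of WT with R132H without DSB, and of either with its own -DSB lists, rests on lists of this kind. Of the comparisons between WT and R132H, only the one with DSB could be fitted without them. These groups also differ in depth. The reads estimated from the deposited fold values were 70850000 to 85420000 in WT +DSB and 23740000 to 34650000 in R132H +DSB. They were 22740000 to 35100000 in WT -DSB and 44280000 to 63170000 in R132H -DSB. The highest came from WT +DSB replicate 3, which differed from replicate 4 by less than sampling noise (chi-squared per degree of freedom 0.4951). For TET1 CD +DSB replicates 1 and 2 this ratio was 0.6145. Whether reads were scaled was not tested. The part of the difference in depth in the results was not tested either.

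Strength is given as the rank of a peak by its fold value within its own list, since fold values are not normalised between lists: rank 1 is the strongest peak, and a larger rank is a weaker peak. A summit is called strong where it is among the 20000 strongest of its list, and a site is called strong where this holds in at least 12 of 24 lists. There were 10 strong sites in the region, 9 of them also recurrent, and 6 weaker recurrent sites. Cut into pieces of the same length, and leaving out pieces without a recurrent site, the genome gave 1945 pieces with a median of 9 strong and 19 recurrent sites, and the 126 pieces of chromosome 4 had medians of 6 and 13. The PDGFRA region thus held about as many strong sites as the typical piece, and 54.1% of pieces held fewer.

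The sequences under these sites show which could bind CTCF by its usual motif and which hold a CpG. Each is the best match, within 50 bp of the summit, to a 20 bp CTCF matrix that was learned from 16383 strong sites off chromosome 4. Its threshold was set so that 1.0% of windows 500 to 600 bp away matched. At this threshold it matched 86.65% of the 19781 strong sites of the genome, most of which it had been learned from. Of the 10 strong sites, 7 had a match, 4 on the plus and 3 on the minus strand, and none of those 7 matches held a CpG, whereas 45.06% of 17140 matches genome-wide did. The sequences are from GRCh38 and read 5′ to 3′ on the strand given, with CpG in capitals.
LNX1 intron, chr4:53491196-53491215, plus strand: ttgacctgcagagggagtta
Beyond the LNX1 start, chr4:53706607-53706626, plus strand: tagcccagtagagggagctg
Intron of lncRNA ENSG00000249706, chr4:53908807-53908826, plus strand: gtggacaaaagagggcagtg
Between LNX1 and CHIC2, chr4:53930175-53930194, plus strand, below the threshold: aatgcagctagatggCGctc
PDGFRA upstream, chr4:54217976-54217995, minus strand: taaaccactagagggagcaa
Before the first PDGFRA start, chr4:54228232-54228251, minus strand, below the threshold: gCGagggaaagggggCGctg
PDGFRA second start, upstream place, chr4:54233462-54233481, minus strand: gagcccactagagggCGCGa
PDGFRA second start, downstream place, chr4:54234422-54234441, minus strand: gtggccagcagatggcagtg
First site beyond PDGFRA, chr4:54319085-54319104, plus strand, below the threshold: agtaccacaaggggctgcta
Second site beyond PDGFRA, chr4:54323006-54323025, plus strand: ttggccacaagggggaagca
Intron of lncRNA ENSG00000251264, chr4:54441035-54441054, minus strand: cctgacactagatggggctc
KIT intron, chr4:54683797-54683816, plus strand: tttgccaccaggtggcaCGc
The best stretch at the strong site next to the first PDGFRA start scored -1.63 against a threshold of 10.631, and 2.2% of strong sites scored lower. It holds 2 CpG. The 2 other stretches below the threshold scored 8.88 and 10.28. The upstream place at the second start (strong in 11 lists) and the KIT intron site (strong in 7) are not strong sites by the definition above. Their matches hold CpG, so the absence of CpG among the 7 matches of strong sites depends on the cutoff of 12 lists. They are shown because of their values, which were known when they were chosen. The spaced core CCNNNAGNNGGC, searched on both strands, was in 46.65% of strong sites and 1.23% of the neighbouring windows.

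**Figure D1:**
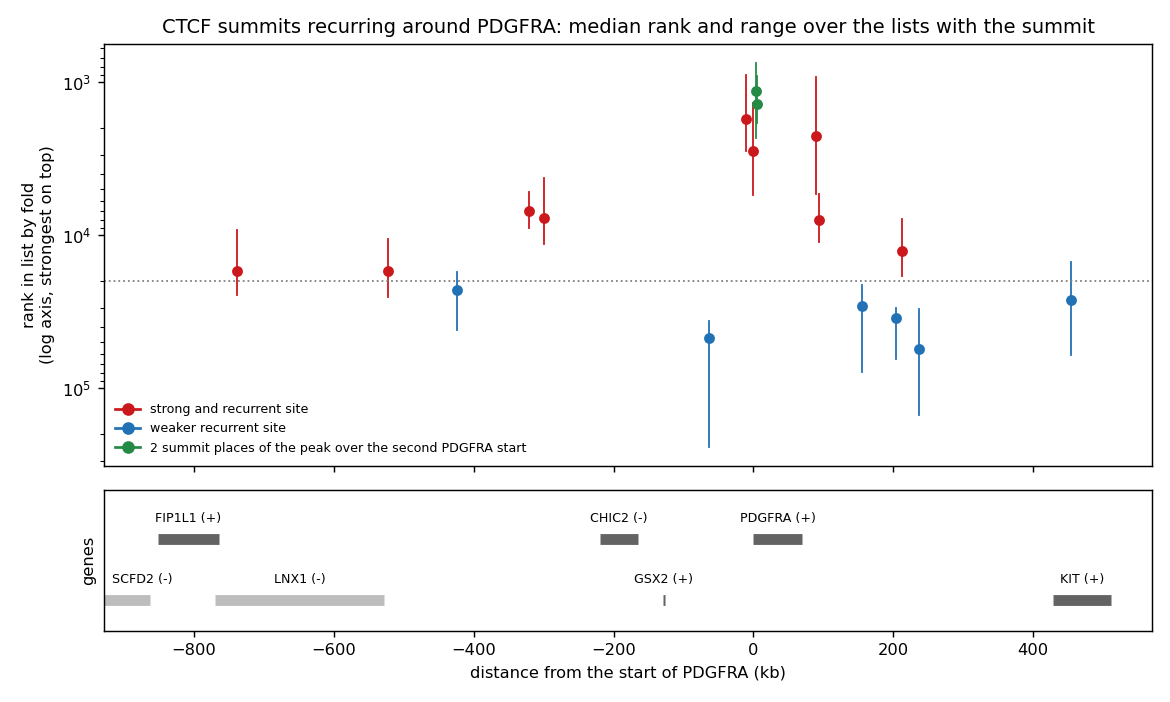
CTCF sites around PDGFRA by distance from its start in kb (horizontal axis) and rank within a list (vertical log axis, strongest on top). Points are medians and lines the range over the lists that hold the summit, the dotted line is rank 20000, and bars below mark genes with their strand. The strongest sites lie within 12 kb of the PDGFRA start or 89.8 kb beyond it, and all 4 weaker sites on the KIT side of PDGFRA lie below the line at the median.

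PDGFRA was the only one of the 5 genes with a strong CTCF peak at its start. Within 2 kb of the annotated start of PDGFRA (position 54229280, plus strand), all 24 lists had a summit and all 24 had a strong one. FIP1L1 had a summit there in 21 lists, CHIC2 in 24, GSX2 in 4 and KIT in 5, and none of these was strong. The best rank at these starts was 42338 for FIP1L1, 43363 for CHIC2, 106492 for GSX2 and 86268 for KIT, against 1366 for PDGFRA. LNX1, a ubiquitin ligase gene, and SCFD2, a gene of the Sec1 family, which also reach into the region, had summits at their starts in 17 and 19 lists with none strong.

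The site closest to the first PDGFRA start lay 1039 bp upstream, at 54228241, and was strong in every list. Its ranks were 2482, 2238 and 2939 in WT -DSB and 2449, 2466, 2708 and 1983 in WT +DSB. In R132H they were 3564, 3350, 2416 and 2285 without and 2897, 2993, 3045 and 2281 with DSB. With TET1 CD they were 3314 and 4155 without and 1366 and 2058 with DSB, and with TET1 dCD 2933, 5443 and 2061 without and 3209 and 3692 with DSB. WT and R132H overlapped in both treatments, and TET1 CD +DSB held the strongest value of all. No CTCF match was found within 50 bp of this summit, a stretch that holds 6 CpG.

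The PDGFRA upstream site, at 54217991 and 11.3 kb before the start, was the steadiest of the region for its strength. Its ranks were 1215, 1710 and 2174 in WT -DSB and 1722, 2173, 2606 and 2833 in WT +DSB. In R132H they were 1869, 1851, 1392 and 1752 without and 1511, 1233, 899 and 2602 with DSB. With TET1 CD they were 1949 and 1448 without and 1366 and 2298 with DSB, and with TET1 dCD 1384, 1898 and 1400 without and 1643 and 1781 with DSB. All groups overlapped. The SD of its log2 rank over the 24 lists was 0.394, against a median of 0.664 over 570 sites of like median rank, of which 2.1% varied less. Among sites of like rank, 4.7% varied less than the site in ENSG00000249706 and 9.1% less than the site at 54228241. By median rank it is the strongest recurrent site between GSX2 and PDGFRA. Its match is on the minus strand and has no CpG, although 4 CpG lie within 50 bp of the summit.

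PDGFRA has a second RefSeq start at position 54233960, whose promoter, from 250 bases before to 50 after it, is rich in CpG (32 CpG, 66.7% G or C, against 8 and 47.0% at the first start). A broad CTCF peak covered this start in all 24 lists. The peak was 2587 to 5953 bp long, with a median of 3209.5 bp, and ranked from 752 to 2324 with a median of 1227. Its summit fell at 1 of 2 places, at -485 to -460 bp from the start (upstream) in 11 lists or at 471 to 495 bp (downstream) in 13 lists. Both places have a minus-strand match. The upstream match holds 2 CpG and the downstream one none.

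With DSB, the place of the summit separated the genotypes. The summit was upstream in all 4 WT +DSB lists (2 samples) and downstream in all 4 R132H +DSB lists (3 samples). Without DSB, lists of WT, R132H and TET1 dCD held both places, and so did lists counted as 1 sample. It was upstream in WT -DSB replicate 3, R132H -DSB replicates 1, 2 and 3, both TET1 CD +DSB lists and TET1 dCD -DSB replicate 3, and downstream in WT -DSB replicates 2 and 4, R132H -DSB replicate 4, both TET1 CD -DSB lists, TET1 dCD -DSB replicates 1 and 2 and both TET1 dCD +DSB lists. The ranks of the peak were 1792, 1662, 765 and 752 in WT +DSB and 1850, 953, 1425 and 1127 in R132H +DSB, and these overlap. By the run names, the summit was upstream in 7 of 8 WT lists and downstream in 6 of 7 R132H lists, and TET1 CD +DSB held both places in 2 lists each. The shortest peak of a list, which by default in MACS2 is the fragment length, also went with the place. It was 127 to 194 bp in lists with the upstream summit and 118 to 144 bp in those with the downstream summit. With DSB it was 143 to 191 bp in WT and 121 to 127 bp in R132H, so it separated the same lists as the genotype. The part of fragment length in the choice of summit was not tested.

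**Figure D2:**
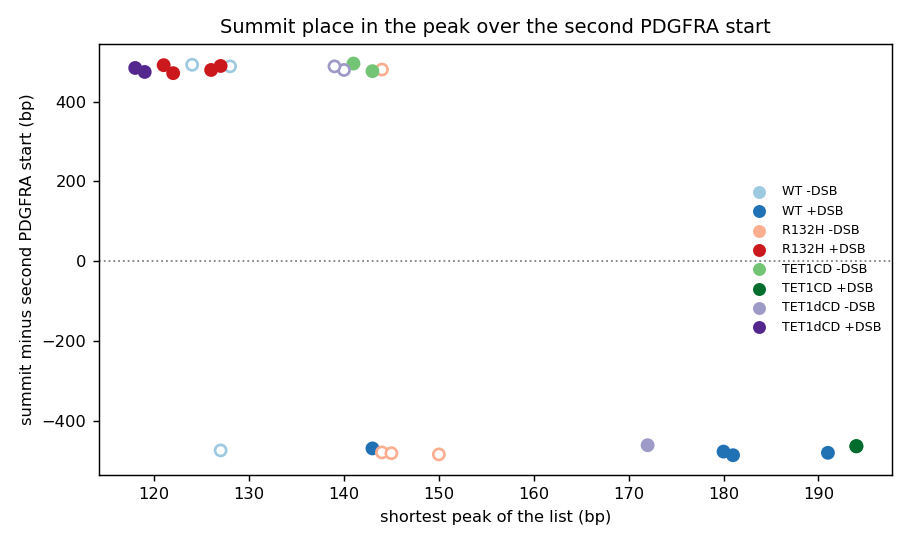
Position of the summit relative to the second PDGFRA start in bp (vertical axis) against the shortest peak of the list in bp (horizontal axis), 1 point per list, coloured by condition, open where the run name goes against the label; both TET1 CD +DSB lists fall on 194 bp. Summits sit near 480 bp on either side of the start, with 11 upstream and 13 downstream.

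Between FIP1L1 and PDGFRA, 4 strong sites lay in the part from LNX1 to CHIC2. The LNX1 intron site, at 53491191 (-738.1 kb from the PDGFRA start), was strong in 22 lists and ranked from 9202 to 24475 with a median of 17133. The site at 53706603 lies 5.2 kb upstream of the LNX1 start, in an intron of the lncRNA ENSG00000249341, and was strong in 18 lists. The site in ENSG00000249706, at 53908807, was strong in all 24 lists, with ranks from 5192 to 9014. Its neighbour at 53930177, 134.4 kb beyond the start of CHIC2, was also strong in all 24, with ranks from 4206 to 11435. The 3 of these sites with a match had it on the plus strand, whereas the PDGFRA upstream site and both places at the second start had theirs on the minus strand. No strong or recurrent site lay in FIP1L1, CHIC2 or GSX2 themselves, nor between CHIC2 and GSX2. That last interval, 34.9 kb long, still had the densest summits of the intervals compared, with 747.5 per 100 kb over the 24 lists, against 312 before FIP1L1 and 130 between KIT and the end of the region. Its 261 summits lay at 119 sites, none of them strong or recurrent.

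Beyond PDGFRA, 3 strong sites and 3 weaker recurrent ones lay before KIT. The first of the strong sites, at 54319089 and 89.8 kb from the PDGFRA start, ranked from 932 to 5400 with a median of 2235, and its best match stayed below the threshold. The second, at 54323001, ranked from 5342 to 11093, and its match is on the plus strand. The third, at 54441045 in an intron of ENSG00000251264, ranked from 7882 to 18492. Among the 6 weaker recurrent sites of the region, 1 lay between LNX1 and CHIC2, 1 between GSX2 and PDGFRA, 3 between PDGFRA and KIT and 1 in KIT, and 5 of the 6 had a match. None lay within 2 kb of the start of a gene of the set. The KIT intron site, at 54683790 and 26.5 kb into the gene, had a summit in all 24 lists and was strong in 7.

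The weaker recurrent sites were strong in too few lists to be tested on ranks, apart from that in KIT and that at 53804944, and are described here with their values in view. The site at 54165619, in the interval between GSX2 and PDGFRA (-63.7 kb from the PDGFRA start), had a summit in 19 lists. Its ranks were 36436, 44827, 41386 and 47054 in WT +DSB and 128921, 122296 and 242288 in R132H +DSB, where replicate 4 had no summit. They were 93143, 241763 and 37355 in WT -DSB, and 56188, 59567 and 41464 in R132H -DSB, where replicate 3 had none. With TET1 CD they were 38776 and 50540 without and 40087 and 36599 with DSB. With TET1 dCD they were 46933 and 68573 in replicates 1 and 3 without DSB, replicate 2 and both +DSB lists having no summit. Each WT +DSB list was thus stronger here than each R132H +DSB list, while WT -DSB and R132H -DSB overlapped. The summit held only 6 to 58 reads over the lists, and the estimated depth was 23740000 to 34650000 reads in R132H +DSB and 26630000 to 27900000 in TET1 dCD +DSB, against 70850000 to 85420000 in WT +DSB. The part of depth in this pattern was not tested.

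The site at 54384759, 155.5 kb beyond the PDGFRA start, ranked 24686, 28007, 21505 and 21185 in WT +DSB and 36575, 32230, 57672 and 78461 in R132H +DSB, with no overlap. Without DSB it ranked 37471, 45177 and 41711 in lists labelled WT and 23492, 29756, 25420 and 27376 in lists labelled R132H, again with no overlap and in the opposite order. Its match is on the plus strand, without CpG. The sites at 54433896 (30048 to 64773 in 23 lists) and 54466691 (30445 to 149197 in 21 lists) lie at 204.6 and 237.4 kb, and that at 53804944 ranked from 17394 to 41373 in all 24 lists. The site at 53804944 was strong in 4 lists, among them WT +DSB replicates 2, 3 and 4 and no R132H +DSB list. Without the WT +DSB lists it would have missed the filter of the test on ranks.

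**Figure D3:**
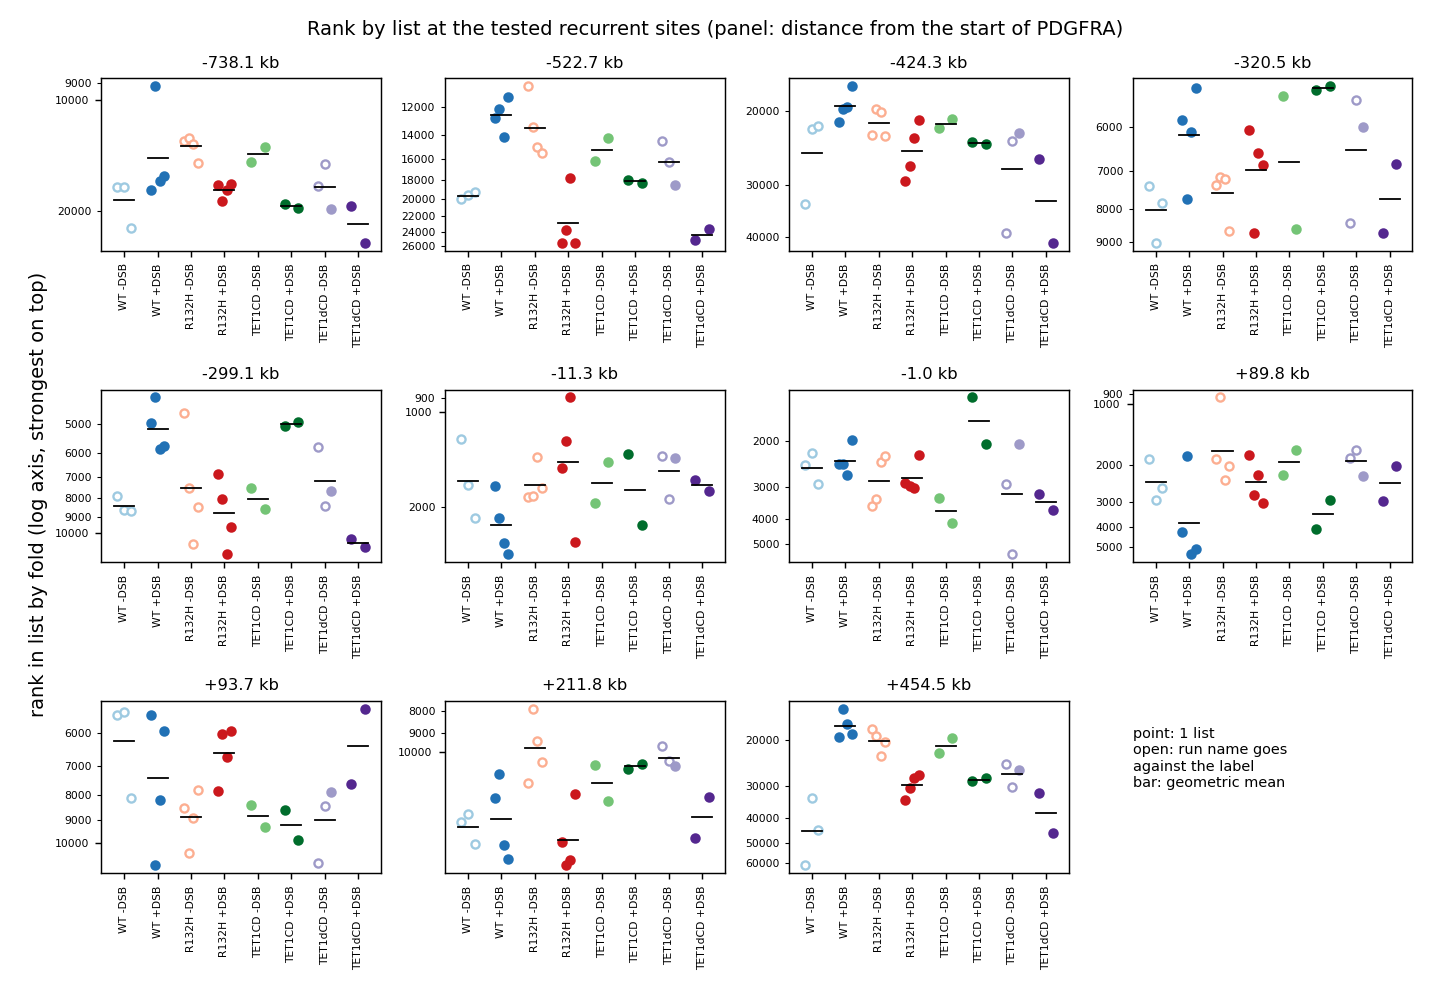
Rank by list (vertical log axis, strongest on top) in each condition (horizontal axis) at the 11 recurrent sites that were tested, panels named by distance from the PDGFRA start. Points are lists, open where the run name goes against the label, and bars are geometric means; at -11.3 kb and -1.0 kb all conditions of WT and R132H overlap, while at -522.7 kb every R132H +DSB list is weaker than every WT +DSB list.

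The first question was whether the mutant enzyme goes with weaker CTCF binding around PDGFRA. The number of strong summits was 11 to 12 per WT +DSB list and 9 to 10 per R132H +DSB list, which do not overlap, and 9 to 10 per WT -DSB and 10 to 12 per R132H -DSB list. The means were 9.25 ± 0.354 (SD, n = 2) and 11.8 ± 0.236 (n = 2) in WT, without and with DSB, and 10.8 ± 0.236 (n = 2) and 9.17 ± 0.289 (n = 3) in R132H. The change with DSB was thus 4.25 strong summits lower in R132H than in WT (two-sided exact permutation test, p = 0.0167, the smallest that 60 arrangements allow; adjusted over 9 tests, p = 0.15), so it failed the correction. Averaged over treatments, R132H differed from WT by -0.54 strong summits (exact permutation p = 0.5333, adjusted 0.686). Of the 15 recurrent sites, 13 to 15 had a peak in each list, a count that can hardly fall because these sites were chosen for a summit in at least 18 lists. The genotypes differed by -0.33 of these sites (exact permutation p = 0.25, adjusted 0.562) and by 0 in the change with DSB (p = 1, exact). Over the 20 sites with a summit in at least 12 lists, the change with DSB was 5 sites lower in R132H (value -5.0, exact permutation p = 0.0333, unadjusted). All summits together differed by -48.1 between the genotypes (p = 0.1333, adjusted 0.4, exact permutation) and by -26.8 in the change (p = 0.6167, adjusted 0.694, exact).

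Single sites were tested on the log2 rank, so that a positive difference is a weaker peak, with limma across the 24540 sites of the genome that were strong in at least 4 lists and Benjamini-Hochberg adjustment over all of them. Of the sites around PDGFRA 13 entered this test: 11 recurrent sites and both places at the second start. Over both treatments, 0 of 13 differed between R132H and WT (0.0285% of all sites; at an unadjusted p under 0.05 0 of 13, and 825 of all). Between R132H +DSB and WT +DSB, 5 of 13 were called (37.2% of all sites), and without the lists at odds with their labels also 5 (38.4%). Without DSB, 2 were called (18.7%). The shares in the region were 38.5% and 15.4%. The 5 calls include both summit places of the peak at the second PDGFRA start. With an absent summit given the rank of the peak that covers it, 3 of 13 were called with DSB (23.1%, against 40.7% of all sites).

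With the 15 samples, the recurrent sites 11.3 kb and 1039 bp upstream of PDGFRA did not pass the test on ranks in any comparison. At the PDGFRA upstream site, R132H minus WT was -0.67 ± 0.34 (SE) with DSB (limma adjusted p = 0.1324) and 0.20 ± 0.37 without (adjusted p = 0.7235). At the site 1039 bp from the start it was 0.23 ± 0.33 with DSB (limma adjusted p = 0.5955) and 0.28 ± 0.36 without (adjusted p = 0.6005). A p above the threshold does not show that the ranks were the same. In simulated data with no other differences and 200 of 24540 sites changed, the fit recovered 19% of changes of 1 in log2 rank with DSB. In the lists 37.2% of sites were called, which makes the adjusted threshold less strict, so this share does not give the power here. The sites 89.8 and 93.7 kb beyond the start and the site in ENSG00000249706 likewise passed in none of the comparisons on ranks.

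These calls depend on the scale. When log2 fold values, centred on the median of each list and signed so that positive is weaker, were compared in place of ranks, 12 sites of the region had a peak in every list and could be tested, without either place at the second start and with the site at 54384759 added. Of these, 9 were called between R132H +DSB and WT +DSB (56.6% of all sites) and 11 for the change with DSB (65.7%). On this scale the PDGFRA upstream site (-0.75, limma adjusted p = 5.95e-04) and the site 1039 bp from the start (-0.58, adjusted p = 9.12e-04) were stronger in R132H with DSB, and without DSB weaker (0.50 and 0.49, limma adjusted p = 0.0246 and 0.0108). The sites 89.8 kb (-0.67, limma adjusted p = 0.00169) and 93.7 kb (-0.57, adjusted p = 6.58e-04) beyond the start and the site in ENSG00000249706 (-0.41, adjusted p = 0.0045) were also called as stronger in R132H with DSB. The median over all sites was itself -0.25 on this scale with DSB and 0.18 without, so relative to it the differences are smaller. The 4 sites called as weaker in R132H with DSB were the site upstream of LNX1 (1.13), the KIT intron site (1.41) and the recurrent sites at 53804944 (0.86) and 54384759 (1.19), and by median rank each of these 4 is weaker than the 5 called as stronger.

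The site upstream of LNX1, at 53706603, was called in the same direction in each fit of the DSB comparison with 1 sample left out. Its ranks were 12722, 12132, 14163 and 11335 in WT +DSB and 25528, 23759, 17812 and 25517 in R132H +DSB, and the 4 R132H lists were all weaker. The difference was 0.92 ± 0.16 (limma adjusted p = 0.00114). Without DSB its ranks were 20024, 19585 and 19226 in the lists labelled WT and 10671, 13412, 14984 and 15433 in those labelled R132H, so there the order was the opposite (-0.66 ± 0.17, limma adjusted p = 0.0218). In WT its rank moved by -0.67 ± 0.17 with DSB and in R132H by 0.91 ± 0.16 (limma adjusted p = 0.0127 and 0.00253). The -DSB lists are those at odds with their labels, and the estimated depth turns between treatments as well. It was 70850000 to 85420000 reads in WT +DSB and 23740000 to 34650000 in R132H +DSB. Without DSB it was 22740000 to 35100000 in lists labelled WT and 44280000 to 63170000 in those labelled R132H. The part of labels or depth in this order was not tested.

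The KIT intron site moved in the same directions as the site upstream of LNX1. Its ranks were 19511, 15080, 17271 and 18923 in WT +DSB and 34266, 30655, 28131 and 27251 in R132H +DSB. Without DSB they were 61120, 33444 and 44564 in lists labelled WT and 18091, 19248, 22999 and 20373 in lists labelled R132H, and neither pair of groups overlaps. R132H minus WT was 0.88 ± 0.30 with DSB (limma adjusted p = 0.0349) and -1.32 ± 0.33 without (adjusted p = 0.0162). The site was strong in 7 lists, among them all 4 of WT +DSB and none of R132H +DSB. Without the WT +DSB lists it would have missed the filter of 4 strong lists. Its calls in comparisons with WT +DSB are thus not independent of that filter. The call with DSB was lost in 6 of 15 fits that left out 1 sample (limma adjusted p up to 0.1896), and that without DSB in 3. The 6 left out either WT +DSB sample, either R132H -DSB sample, or R132H +DSB replicate 1 or 2. Its motif match holds 1 CpG.

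The third recurrent site called between R132H +DSB and WT +DSB was that at 53930177. Its ranks were 4950, 4206, 5863 and 5740 in WT +DSB and 6864, 8023, 11435 and 9625 in R132H +DSB, all weaker in R132H (0.79 ± 0.28, limma adjusted p = 0.0411). This call was lost in 8 of 15 fits that left out 1 sample (adjusted p up to 0.2015), namely those without either WT +DSB sample, either WT -DSB sample or either TET1 dCD +DSB sample, and those without R132H +DSB replicate 2 or without its replicates 3 and 4. On log2 fold the difference turned to -0.18. The other calls were the 2 places at the second PDGFRA start, with 6.27 ± 1.86 upstream and -6.26 ± 1.74 downstream (limma adjusted p = 0.0357 and 0.0289). These follow from the summit being at 1 place or the other, an absent summit having been set to rank 100000. With the rank of the covering peak put in its place, an alternative added after the values were seen, the difference was 0.01 at both places. With 1 sample left out, the call was lost in 9 of 15 fits at the upstream and 5 of 15 at the downstream place, and without any 1 of the WT +DSB or R132H +DSB samples at both.

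**Figure D4:**
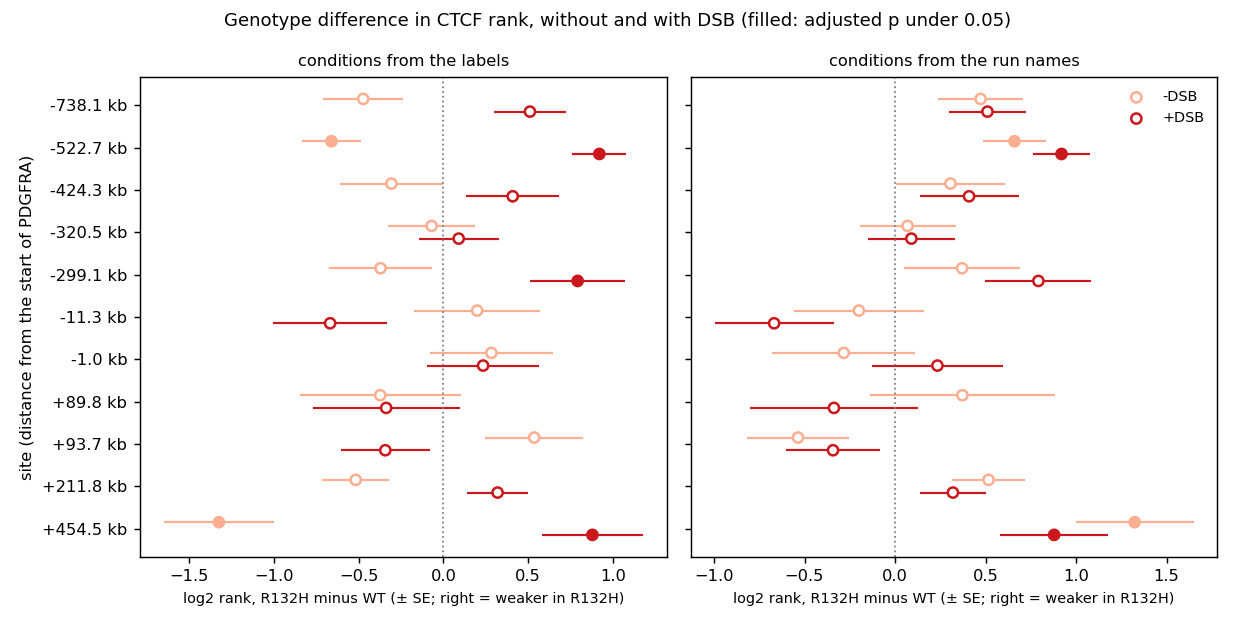
Difference in log2 rank between R132H and WT (horizontal axis, ± SE, right is weaker in R132H) at the 11 recurrent sites that were tested (vertical axis, distance from the PDGFRA start), without and with DSB, filled where the limma adjusted p is under 0.05. With groups from the labels (left) the 5 sites from -738.1 to -299.1 kb and those at +211.8 and +454.5 kb lie left of 0 without DSB and right of 0 with DSB. With groups from the run names (right) they lie right of 0 in both. The sites at -424.3 and +454.5 kb met the filter of 4 strong lists only with their WT +DSB lists.

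The second question was how DSB induction changed the peaks in each genotype. In WT 2 of 13 sites were called (33.5% of all sites), the site upstream of LNX1 and the KIT intron site, both with stronger ranks after 4-OHT. The KIT intron site moved by -1.54 ± 0.33 (limma adjusted p = 0.00446). In R132H 2 were called (20.8%), the site upstream of LNX1 and that in ENSG00000251264 (0.67 ± 0.18, limma adjusted p = 0.0224), both weaker after 4-OHT. The change differed between genotypes at 7 of 13 sites (50.3% of all sites): the LNX1 intron site, the site upstream of LNX1, the site at 53930177, both places at the second PDGFRA start, the site in ENSG00000251264 and the KIT intron site. The median of the difference over the 13 sites was 0.72, against -0.15 over all sites tested. Of the 13, the site at 53804944 and the KIT intron site met the filter only with their WT +DSB lists. WT and R132H without DSB enter these values with labels that the run names contradict. The region holds 1 AsiSI recognition site (GCGATCGC), at chr4:54205126-54205133, at -24.2 kb from the PDGFRA start and 12.9 kb from the PDGFRA upstream site, whose rank moved with DSB by 0.56 ± 0.37 in WT and -0.31 ± 0.34 in R132H (limma adjusted p = 0.2537 and 0.5202). Whether AsiSI cut there was not measured in these lists.

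With groups from the run names, the -DSB groups of WT and R132H change places. The sites upstream of LNX1 and in KIT were then weaker in R132H in both treatments, whereas the site 1039 bp from the PDGFRA start (0.23 with and -0.28 without DSB) and that 89.8 kb beyond it (-0.34 with and 0.37 without DSB) still changed sign between treatments. R132H differed from WT at 7 of 13 sites over both treatments (49.1% of all sites), and the change with DSB differed between genotypes at 0 of 13 (0.0122%). The site upstream of LNX1 was 0.79 ± 0.12 weaker in R132H on the log2 scale (limma adjusted p = 2.77e-04) and the KIT intron site 1.10 ± 0.22 (adjusted p = 0.00184). The KIT intron site met the filter of 4 strong lists only with lists named WT, so its call is not independent of that filter. All 7 of these sites were also the 7 called for the change with DSB under the labels. This overlap is built in and is not independent support. Exchanging the -DSB groups turns the label-based change with DSB into the genotype difference, on another scale. The same holds for the genotype difference in the counts given below. The PDGFRA upstream site (-0.43 ± 0.24, limma adjusted p = 0.1563) and the site 1039 bp from the start (-0.02 ± 0.27, adjusted p = 0.947) were not called under these groups either. Within treatments, 4 of 13 sites were called with DSB (35.4% of all sites) and 2 without (17.9%), and 0 for DSB in WT (0.0611%), for DSB in R132H (0.00815%) and for TET1 CD against TET1 dCD (0.0693%). In the counts, R132H had 2.12 fewer strong summits than WT (difference -2.12, exact permutation p = 0.0167) with a DSB change of -1.08 (p = 0.5333, exact), and differed by 0 recurrent sites with a DSB change of -0.67 (exact permutation p = 0.25). All summits differed by -13.4 (exact permutation p = 0.6167) with a DSB change of -96.2 (p = 0.1333, exact). TET1 CD minus TET1 dCD was 1 strong summit, 0.62 recurrent sites and -24.4 summits (exact permutation p = 0.1667, 0.3333 and 0.8333). Which of the 2 sets of names is right cannot be told from the peak lists.

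The last comparison asked whether the TET1 catalytic domain changes CTCF around PDGFRA in R132H cells. Of 13 sites 0 were called between TET1 CD and TET1 dCD over both treatments (0.0815% of all sites; at an unadjusted p under 0.05 0 of 13, and 3014 of all). The values were 0.10 ± 0.32 at the PDGFRA upstream site and -0.33 ± 0.31 at the site 1039 bp from the start (limma adjusted p = 0.9195 and 0.6751). TET1 CD lists had 10 to 11 strong summits and TET1 dCD lists 8 to 10, a difference of 1 (exact permutation p = 0.1111, the smallest that 9 arrangements allow; adjusted 0.4). Recurrent sites with a peak differed by 0.88 (exact permutation p = 0.3333, adjusted 0.6). All summits differed by -112.5 (p = 0.4444, adjusted 0.667, exact permutation), and this count ran with the length of the list: both TET1 CD +DSB lists had 111558 and 115419 peaks in all and 52 and 45 here, and the TET1 dCD +DSB lists 503609 and 448059 peaks and 351 and 293 here.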

How the data were processed

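CTCF ChIP-seq peak lists of 24 samples, in a series of 117, were analysed. The authors mapped reads to GRCh38 and called peaks per list; the submitters' processing notes name cutadapt 1.18 and Bowtie2 2.3.4.1. The deposited fold, a ratio of summit reads to a single background per list, is not normalised between lists, and the deposited −log10 q was used only for thresholds. The deposited score column was not used. All peaks were kept and ranked by fold.

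Summits within 100 bp were joined. Log2 ranks, capped at 100000 and with absent summits at the cap, were fitted with limma 3.58.1 (trend, robust) as 8 group means. Summit counts were compared by exact permutation within treatments. Named were the 5 genes, the other protein-coding genes with a gene symbol and each strong site. The protein-coding entry ENSG00000282278 (53377839 to 54295272) runs from within FIP1L1 to within PDGFRA. It was left out when sites were placed between genes. Genes came from GENCODE 44, second starts from RefSeq. The fit was tested on simulated data for R132H against WT with DSB, with 200 of 24540 sites changed. It recovered 0% of changes of 0.5 and 19% of changes of 1 in log2 rank, and 5% of its calls were false. The other sites were simulated without a difference between groups, whereas 37.2% of sites were called in the lists. These shares thus do not carry over to the lists. No peak lay past the GRCh38 ends of 23 chromosomes compared. Members and lists were chosen with earlier results of these data known. Read estimates assume a genome of 2700000000 bp. Alternatives were other caps, filters, thresholds, groupings and samples left out. The lists of 4C-seq and of WT -DSB replicate 1 were not analysed here. Read counts behind the values cover counting error only.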

Additional observations from a re-analysis of the deposited data

Results flagged for a closer look

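At 7 sites the change with DSB differed between the genotypes in the test of that difference, on the log2 rank scale and with limma's adjusted p under 0.05 (50.3% of all sites tested were called). The value, R132H minus WT, was 0.98 at the LNX1 intron site (53491191), 1.58 at the site upstream of LNX1 (53706603) and 1.16 at the site at 53930177. It was 0.84 at the site in ENSG00000251264 (54441045) and 2.20 at the KIT intron site (54683790), which met the filter of the test only with its WT +DSB lists. At the second PDGFRA start it was 9.54 at the upstream place (54233484) and -9.72 at the downstream place (54234444), where the summit is at 1 place or the other. The -DSB lists of both genotypes enter each value, and their run names go against their labels. With groups from the run names, none of the 7 was called for this change. That contrast is then the genotype difference of the labels on another scale. No group holds 4 or more samples, so single samples were not screened for distance from their group.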

How the results depend on the processing

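The peaks are called per list, so a site without a peak has no value, and depth differs between the groups. The cause of the shifts that follow was not tested. Of the window counts, the DSB change by genotype in all summits was 23.75 with every list as its own sample, 43.58 with the replicate block, -12.8 at a −log10 q of at least 10 (exact permutation p = 0.0167) and -0.036 as a percent of all peaks (exact p = 0.0333), and -89.8 at a q under 0.05. With 1 sample left out it ran from -79.7 (without WT +DSB replicates 1, 3 and 4) to 26.0 (without WT +DSB replicate 2). The genotype difference in all summits ran from -74.5 (without WT +DSB replicates 1, 3 and 4) to -21.7 (without WT +DSB replicate 2) and the TET1 CD difference from -155 (without TET1 dCD -DSB replicate 3) to -70 (without its replicates 1 and 2), and the latter was 2.5 at a −log10 q of at least 10. The genotype difference in strong summits was -2.12 with groups from the run names (exact p = 0.0167), which is the DSB change by the labels on another scale. The DSB change in strong summits was -1.08 with the run names and -0.17 among the 10000 strongest, -9.08 among the 50000 strongest (exact p = 0.0333), and -4.5 to -4.0 with 1 sample left out, where the exact p reached 0.0556 without any 1 of the R132H +DSB samples. Recurrent sites, taken as sites in at least 12 lists, gave 0.33 for the genotype and -5 for the DSB change (exact p = 0.0333), and with summits within 50 bp -0.12 for TET1 CD.

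With the 12-list filter 37.2% of all sites were called with DSB, 20.1% without DSB and 33.4% for DSB in WT. With summits within 50 bp, 3902 of 24627 sites were called without DSB, 7211 for DSB in WT and 4380 for DSB in R132H. Of the sites of the region, 13 were tested by limma, but 10 with the 12-list filter and 12 on log2 fold, which leaves out both places at the second start and adds that at 54384759. The number called was 0 in all alternatives run for TET1 CD against TET1 dCD, and for R132H against WT in all but the run names, where it was 7. With DSB it was 3 among sites strong in 12 lists, 9 on log2 fold, 3 with the covering peak, and 1 (without WT +DSB replicate 2 or R132H +DSB replicate 2) to 5 with 1 sample left out. Without DSB it was 1 with the 12-list filter or 50 bp, 6 on log2 fold, 4 with every list or the replicate block, and 0 (without WT -DSB replicate 2 or R132H -DSB replicate 1) to 3 with 1 sample left out. For DSB in WT it was 1 with the 12-list filter or 50 bp, 10 on log2 fold, 4 with every list, 5 with the replicate block, 0 with the run names, and 1 to 4 with 1 sample left out (1 without WT -DSB replicate 2 or WT +DSB replicate 2). For DSB in R132H it was 1 at 50 bp, 9 on log2 fold, 6 with every list or the replicate block, 0 with the run names, and 0 (without R132H -DSB replicate 1) to 4. For the DSB change by genotype it was 11 on log2 fold, 0 with the run names, and 3 (without WT -DSB replicate 2, WT +DSB replicate 2 or R132H -DSB replicate 1) to 7. The site upstream of LNX1 and the KIT intron site kept this last call in all 15 such fits, in which a group left with 1 sample was assumed to vary like the others. The KIT intron site met the filter of 4 strong lists only with its WT +DSB lists. On log2 fold the median of all sites moved to -0.43 for the DSB change, -0.25 with DSB, 0.18 without DSB, 0.23 for DSB in WT and -0.19 for DSB in R132H. On this scale 65.7%, 56.6%, 39.8%, 52.4% and 46.8% of all sites were called, in the same order. With every list, 9076 of 24540 sites were called without DSB, 13710 for DSB in WT and 9432 for DSB in R132H. With the replicate block these were 9505, 13996 and 10119, and with DSB 14708 (7 of 13 in the region).

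Values that turned sign were 0.013 with DSB at 54234444 and -0.18 for the DSB change at 54233484 with the covering peak, -0.18 with DSB and -0.41 for the DSB change at 53930177 on log2 fold, and, with the run names, 0.66 at 53706603 and 1.32 at 54683790 without DSB and -0.20 at 54441045 and -0.44 at 54683790 for the DSB change. Replicate numbers are shared only as numbers: over 18 pairs of lists the correlation of deviations ran from -0.051 to 0.185 and exceeded 0.1 in 5. The comparisons with -DSB lists of WT or R132H could not be run without the lists at odds with their labels, nor TET1 CD with its only sample of a treatment left out.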
